A study of Macaca mulatta with 7 samples.

Results

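Olfactory receptor genes encode the odorant receptors of the nose, and in these libraries they were picked by symbol: the letters OR, a family number, subfamily letters and a member number. The pattern took 282 of the 18282 genes used. Total RNA had been sequenced from rhesus macaque (Macaca mulatta) sperm, in 3 libraries of the group that the submitters call Maltreated and 4 of the group called Control, in a series on early life stress and the germline. The ages given are 5.67, 5.71 and 5.78 years for the Maltreated libraries and 5.88, 5.82, 5.72 and 5.92 years for the Control libraries. The sperm of both groups came off a PureSperm 40/80 gradient, a step that parts dense sperm from other cells, and no strain, genotype or agent was given for either group. The labels name no animal for a library, so the libraries are treated as separate animals on the ground of their separate labels and ages, and n counts libraries.

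Olfactory receptors are G protein-coupled receptors, and most have their whole coding region in a single exon. In the nose, each sensory neuron expresses mainly a single receptor, and odorant binding is passed on by a G protein to an adenylyl cyclase and a cyclic nucleotide-gated channel. Class I receptors resemble those of fish, and class II receptors make up the rest. In human, transcripts of a few receptors have been described in testis and sperm, and OR1D2 has been tied to the response of human sperm to the odorant bourgeonal.

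Each library had between 5316383 and 30715268 reads on the annotated strand of the genes (sense), summed over exon entries. A read on several exons or overlapping genes is counted on each of them. Sense and antisense are the authors' terms, and since the sources used here do not give the kit or its strandedness, how far reads of a gene could be entered on its opposite strand is not known. The highest total was that of Maltreated 1. Levels are given as CPM, the reads of a gene per 1000000 sense reads of the library, both counted in this way. Genes with several exons can thus count a read more than once, while 269 of the 282 receptors have a single exon entry. Of 14 sperm markers, 13 had sense reads in every library, with a sum of 46891 to 100107 CPM, and SPACA1, an acrosome membrane protein gene, had 0 reads in Control 4. The summed level of 13 leukocyte markers was 25.0, 71.1 and 1117 CPM in Maltreated 1 to 3, against 21.3, 20.1, 54.0 and 791 CPM in Control 1 to 4. PTPRC, the pan-leukocyte CD45 gene, was at 1.17, 1.30 and 72.6 CPM in Maltreated 1 to 3, against 0.203, 1.81, 3.00 and 3.95 CPM in Control 1 to 4. Maltreated 3 and Control 4 thus stood apart in the summed leukocyte markers, and several sums over the receptors are given with and without them. In Control 4, CD74 alone was at 502 CPM. C1QB, CSF3R and LCP1 were also highest there, while FCER1G had 0 reads and PTPRC was close to its level in Control 3. In bulk RNA, fewer cells of a type and less RNA per cell cannot be told apart.

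The receptors were sparse. Of the 282, 205 had at least 1 sense read in some library, 77 had none, and 209 had fewer than 10 sense reads over all 7 libraries. The median of the mean level was 0.03 CPM over the receptors, against 3.62 CPM over all genes and 0.24 CPM over 861 other genes with a single exon entry. Sense reads were present in 144, 41 and 46 receptors in Maltreated 1 to 3, against 51, 45, 43 and 79 in Control 1 to 4. Thinned to the depth of the shallowest library, which is Control 4, the expected numbers were 74.1, 39.0 and 38.5 in Maltreated 1 to 3, against 44.8, 44.5, 41.7 and 79 in Control 1 to 4. Maltreated 1 and Control 4 were the highest at equal depth, and the groups overlapped. At 10 or more sense reads, the numbers were 33, 13 and 14 receptors in Maltreated 1 to 3, against 17, 7, 9 and 33 in Control 1 to 4.

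Sense reads in every library were found for 7 receptors, OR1I1, OR2J2, OR2L2, OR2L3, OR2L5, OR4Q3 and OR5B3. All are class II receptors. They made up 2.48% of the receptors, against 45.9% of all genes with sense reads in every library and 17.2% of the other single-exon genes. With 10 or more reads required in every library, 2 of 282 remained, and with sense and antisense reads added up the number was 16. Sense reads were seen in 1 library for 93 receptors, in 2 libraries for 56 and in 3 for 20. Another 15 receptors had them in 4 libraries, 9 in 5 and 5 in 6.

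No read on either strand was found in any library for 20 receptors. Of class I these were OR51A4, OR51L1, OR52A1 and OR52A5. Of class II they were OR13C4, OR2S2, OR4D11, OR4D2, OR4F15, OR4F4, OR4F6, OR5W2, OR6B1, OR6C6, OR6N1, OR6S1, OR8B12, OR8B8, OR8D4 and OR9A4. They made up 7.09% of the receptors, against 0.66% of all genes and 3.72% of the other single-exon genes. A count of 0 allows up to 0.0977 CPM in Maltreated 1, the deepest library, up to 0.564 CPM in Control 4, and up to 0.0404 CPM over the 7 libraries summed, as 3 reads and for counting error only. The number depended on the deepest library and on Control 4: 56 receptors had no read without Maltreated 1, and 36 had none without Control 4. A further 57 receptors had antisense reads and no sense read.

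Both receptor classes were represented. Of the 39 class I receptors, the OR51, OR52 and OR56 families, 26 had a sense read (66.7%), and of the 243 class II receptors 179 did (73.7%). None of the class I receptors had sense reads in every library. Their sense reads came to 64, 5 and 8 in Maltreated 1 to 3, against 8, 7, 2 and 266 in Control 1 to 4. Most class I reads were thus in Control 4. The class I level averaged 1.21 ± 0.753 CPM in Maltreated libraries (SD, n = 3), against 13.1 ± 24.6 CPM in Control libraries (SD, n = 4) and 0.804 ± 0.467 CPM in Control libraries without Control 4 (SD, n = 3). Without Maltreated 3 it averaged 1.45 ± 0.900 CPM in the Maltreated libraries (SD, n = 2). Over all libraries class I had 360 sense and 486 antisense reads, and class II had 11939 sense and 4382 antisense reads. The receptors lie on 15 chromosomes, and chromosome 11, with 118 of them, held 1084 sense reads against 5650 for the 11 receptors of chromosome 6.

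**Figure D1:**
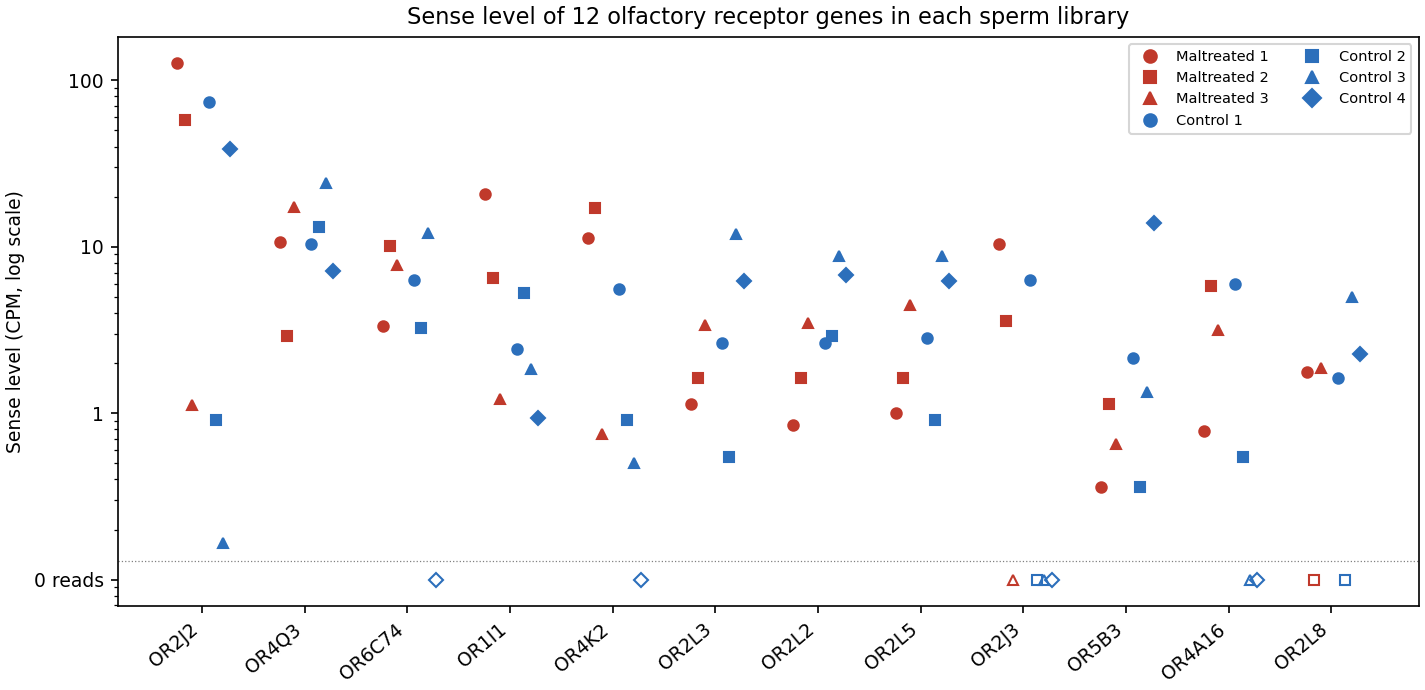
Sense level in CPM (log axis) of 12 receptors, with 1 point per library; red points are Maltreated, blue points Control, and open symbols on the bottom line are libraries with 0 reads. OR2J2 was highest in Maltreated 1, at 128 CPM, and lowest in Control 3, at 0.167 CPM, and the groups overlapped for each of the 11 of these receptors that were tested and for OR5B3.

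OR2J2 had the highest level per kilobase of all receptors in Maltreated 1, Maltreated 2, Control 1 and Control 4, and 1 read in Control 3. It is a class II receptor within the receptor cluster near the major histocompatibility complex, at chr6:29549033-29550068 on the plus strand, with a single exon entry of 1036 bases in the coordinates of the deposited files. Its sense reads numbered 3923, 355 and 12 in Maltreated 1 to 3, against 729, 5, 1 and 205 in Control 1 to 4. Those are 128, 57.6 and 1.12 CPM in Maltreated 1 to 3, against 74.0, 0.904, 0.167 and 38.6 CPM in Control 1 to 4. High and low libraries occurred in both groups. The mean was 62.2 ± 63.4 CPM in Maltreated libraries (SD, n = 3) and 28.4 ± 35.3 CPM in Control libraries (SD, n = 4), and per length the mean over the 7 libraries was 41.4 CPM per kilobase. Its log2 fold change, Maltreated over Control, was 1.13 ± 1.55 (SE, adjusted p = 0.999, edgeR's quasi-likelihood test with Benjamini-Hochberg adjustment), and leaving out each library in turn it ran from 0.03 without Maltreated 1 to 2.28 without Control 1.

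The reads of OR2J2 were spread along the gene where it was abundant. They covered 1036, 909 and 241 bases in Maltreated 1 to 3, against 1010, 220, 46 and 411 bases in Control 1 to 4. Its neighbour OR2J3, 48111 bases away on the same strand, had 317, 22 and 0 sense reads in Maltreated 1 to 3, against 62, 0, 0 and 0 in Control 1 to 4. In the 3 libraries with reads in both, OR2J2 had 12.4, 16.1 and 11.8 times as many reads as OR2J3, in Maltreated 1, Maltreated 2 and Control 1. Control 4 had 205 reads on OR2J2 and none on OR2J3. OR2J2 alone held 58.0% (95% Wilson interval 56.8 to 59.1), 44.0% (40.6 to 47.4) and 1.88% (1.08 to 3.25) of all receptor sense reads in Maltreated 1 to 3. In Control 1 to 4 it held 52.6% (50.0 to 55.3), 1.69% (0.726 to 3.91), 0.180% (0.0317 to 1.01) and 11.1% (9.74 to 12.6). The 2 genes belong to a subfamily of similar sequence, so the split of reads between them is uncertain.

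OR4Q3 came next by mean level per length, at 13.0 CPM per kilobase, and had reads in every library. This class II receptor lies at chr14:81124128-81125068 on the minus strand and has 941 bases. Its sense reads numbered 328, 18 and 185 in Maltreated 1 to 3, against 103, 73, 145 and 38 in Control 1 to 4, which is 10.7, 2.92 and 17.3 CPM against 10.5, 13.2, 24.2 and 7.15 CPM. The lowest library was Maltreated 2 and the highest Control 3, and the groups overlapped. The mean was 10.3 ± 7.20 CPM in Maltreated libraries (SD, n = 3) and 13.7 ± 7.37 CPM in Control libraries (SD, n = 4), with a log2 fold change of -0.48 ± 0.82 (SE, adjusted p = 0.999, edgeR's quasi-likelihood test). The reads covered the whole exon in 5 libraries, 178 bases in Maltreated 2 and 722 bases in Control 4. OR4Q3 also had antisense reads in every library, 39, 3 and 32 in Maltreated 1 to 3, against 15, 11, 30 and 2 in Control 1 to 4. Unlike the sense reads, these lay on 106, 98 and 102 bases in Maltreated 1 to 3, against 149, 101, 101 and 98 bases in Control 1 to 4.

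OR1I1, a class II receptor on the list of those described in human sperm or testis, had reads in every library but was covered in full in Maltreated 1 alone. It lies at chr19:14718338-14719404 on the plus strand, with 1067 bases. Its sense reads numbered 633, 40 and 13 in Maltreated 1 to 3, against 24, 29, 11 and 5 in Control 1 to 4, which is 20.6, 6.49 and 1.22 CPM against 2.44, 5.25, 1.83 and 0.940 CPM. The covered stretch was 1067, 20 and 20 bases in Maltreated 1 to 3, against 23, 20, 100 and 26 bases in Control 1 to 4. Outside Maltreated 1, all its reads thus touched at most 100 bases of the exon. The mean was 9.44 ± 10.03 CPM in Maltreated libraries (SD, n = 3) and 2.61 ± 1.86 CPM in Control libraries (SD, n = 4). The log2 fold change was 1.86 ± 1.14 (SE, adjusted p = 0.999, edgeR's quasi-likelihood test), and it was 0.54 without Maltreated 1.

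OR2L2, OR2L3 and OR2L5 are neighbours of a class II subfamily on the plus strand of chromosome 1, and had similar counts within most libraries. OR2L3, at chr1:224182912-224184400, had 35, 10 and 36 sense reads in Maltreated 1 to 3, against 26, 3, 72 and 33 in Control 1 to 4. OR2L5, at chr1:224207668-224208605, had 31, 10 and 48 in Maltreated 1 to 3, against 28, 5, 53 and 33 in Control 1 to 4. OR2L2, at chr1:224218894-224220026, had 26, 10 and 37 in Maltreated 1 to 3, against 26, 16, 53 and 36 in Control 1 to 4. Control 3 had the most reads of each, and each exon was covered over its whole length in every library, also with 3 reads on the 1489 bases of OR2L3 in Control 2. OR2L13, 46621 bases beyond OR2L2, is listed on the minus strand, and its antisense reads, on the same genomic strand as those of the other receptors, numbered 15, 7 and 28 in Maltreated 1 to 3, against 22, 4, 52 and 33 in Control 1 to 4. Those too covered the whole exon entry in every library. The 3 sense receptors averaged 1.98 ± 1.34, 2.04 ± 1.17 and 2.37 ± 1.86 CPM in Maltreated libraries (OR2L2, OR2L3 and OR2L5, SD, n = 3), against 5.28 ± 3.03, 5.35 ± 5.01 and 4.70 ± 3.52 CPM in Control libraries (SD, n = 4). Their log2 fold changes were -1.48 ± 1.09, -1.45 ± 1.23 and -1.05 ± 1.17 (SE), each with an adjusted p of 0.999 in edgeR's quasi-likelihood test. OR2L8, of the same cluster, had 54, 0 and 20 reads in Maltreated 1 to 3, against 16, 0, 30 and 12 in Control 1 to 4. Its exon is entered in duplicate in the files, and these counts are sums over both entries.

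OR5B3, at chr11:15174167-15175110 on the plus strand, was the last of the receptors found in every library. It had 11, 7 and 7 sense reads in Maltreated 1 to 3, against 21, 2, 8 and 74 in Control 1 to 4. Its exon of 944 bases was covered in full in each library, also by 2 reads in Control 2, and it had no antisense read. The mean was 0.716 ± 0.393 CPM in Maltreated libraries (SD, n = 3) and 4.44 ± 6.36 CPM in Control libraries (SD, n = 4), with Control 4 at 13.9 CPM. Without Control 4, the Control mean was 1.28 ± 0.887 CPM (SD, n = 3). It did not pass the filter on low counts and was not tested.

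Other receptors among the 10 with the highest mean level lacked reads in at least 1 library. OR6C74, at chr12:53435049-53435986 on the plus strand, had 102, 62 and 83 sense reads in Maltreated 1 to 3, against 62, 18, 73 and 0 in Control 1 to 4, and was covered over nearly its whole length wherever it had reads. Control 4 had 34 antisense reads on 98 bases of it instead. OR4K2, at chr14:80997778-80998721 on the minus strand, had 349, 105 and 8 sense reads in Maltreated 1 to 3, against 55, 5, 3 and 0 in Control 1 to 4. It averaged 9.72 ± 8.27 CPM in Maltreated libraries (SD, n = 3) and 1.75 ± 2.59 CPM in Control libraries (SD, n = 4), and its log2 fold change of 2.42 ± 1.51 (SE) was the largest of the receptors tested for sense reads, with an adjusted p of 0.999 in edgeR's quasi-likelihood test. Maltreated 3, at 0.748 CPM, lay below 2 of the 4 Control libraries. OR4A16, which is not among those 10 and is named because it was tested, had 24, 36 and 34 sense reads in Maltreated 1 to 3, against 59, 3, 0 and 0 in Control 1 to 4.

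Summed over all 282 receptors, the sense level was 220, 131 and 59.8 CPM in Maltreated 1 to 3, against 141, 53.4, 92.8 and 348 CPM in Control 1 to 4. The groups overlapped. The mean was 137 ± 80.5 CPM in Maltreated libraries (SD, n = 3) and 159 ± 131 CPM in Control libraries (SD, n = 4), a log2 ratio of -0.21. The sign rested on single libraries: the log2 ratio was 0.15 without Maltreated 3 and 0.52 without Control 4. With all libraries kept, leaving out OR2J2 did not change the sign, with a log2 ratio of -0.80. The level was then 92.6, 73.4 and 58.7 CPM in Maltreated 1 to 3. It was 66.6, 52.5, 92.6 and 309 CPM in Control 1 to 4. The groups overlapped, and the higher Control mean rested on Control 4. Without OR2J2, the mean was 74.9 ± 17.0 CPM in Maltreated libraries (SD, n = 3) and 130 ± 120 CPM in Control libraries (SD, n = 4).

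**Figure D2:**
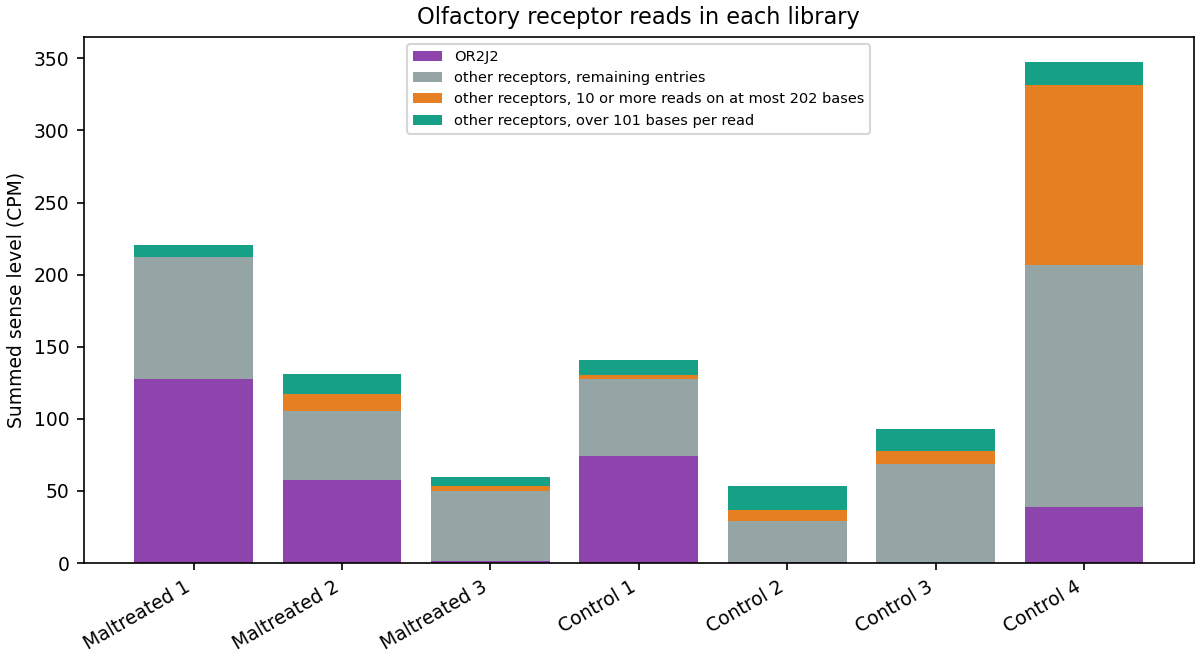
Summed sense level of all receptors in CPM, with 1 bar per library, divided into OR2J2, the remaining entries of other receptors, other receptors with 10 or more reads on at most 202 bases, and other receptors whose reads cover more than 101 bases each. OR2J2 makes up the lower part of the bars of Maltreated 1, Maltreated 2 and Control 1, and the narrow group is widest in Control 4.

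The deposited files give covered bases beside reads, and the pair shows how the receptor reads lay. Among exon entries of all genes with 1 read and partial coverage, the 99th percentile of covered bases was 101, and 98 was the most common value, so 101 bases were taken as the span of 1 read. Of the 449 pairs of a receptor and a library with sense reads, 215 (47.9%) had more covered bases than their reads hold at that span, and they carried 767 reads, 6.24% of the receptor sense reads. In 51 pairs, from 46 receptors, 1 read was listed with the whole exon covered, over 689 to 3560 bases with a median of 947. Such entries were not limited to receptors: of 33764 entries of all genes with 1 read on an exon over 500 bases, 37.6% were listed as covered in full. Without these entries, 3 of 282 receptors had sense reads in every library, OR1I1, OR2J2 and OR4Q3. The covered bases of a receptor with few reads are therefore no measure of how much of it was sequenced, and how the authors' tools produced such entries was not tested.

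**Figure D3:**
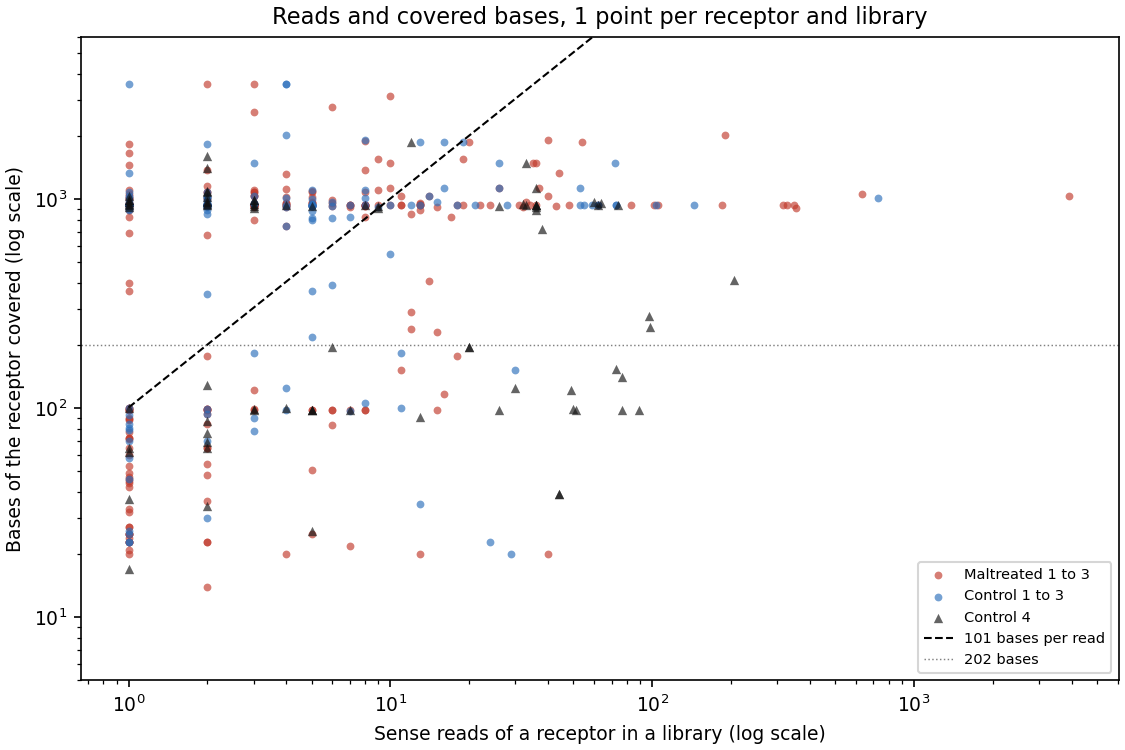
Bases covered against sense reads, both on log axes, with 1 point per receptor and library for pairs with reads; the dashed line is 101 bases per read and the dotted line 202 bases. Points above the dashed line hold more bases than their reads span, and Control 4 (black triangles) has 14 of the 26 points with 10 or more reads at or below 202 bases.

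Some neighbouring receptors had the same count. In 161 of the 449 pairs (35.9%), the count equalled that of a neighbouring exon entry in the same file. Of the 449 pairs, 183 had 1 or 2 reads, where an equal count is easily reached, and the share over all genes was not computed. There were 33 runs of an equal count above 0 over 3 or more receptors, of up to 8 receptors and over 20.6 to 434 kb, with 10, 4 and 1 of them in Maltreated 1 to 3, against 5, 4, 4 and 5 in Control 1 to 4. On chromosome 9, the loci of OR1Q1, OR1L1, OR1L4, OR1L6, OR1N2 and OR1N1 span 170 kb, and each had 13, 0 and 0 reads in the forward files of Maltreated 1 to 3, except OR1L1 with 15, 0 and 4, against 1, 0, 2 and 36 reads in those of Control 1 to 4. OR1N1 is listed on the minus strand and overlaps OR1N2, so that the reads of both are from the same place. OR5C1, the next receptor, had 13, 0 and 0 reads in Maltreated 1 to 3, against 3, 0, 2 and 64 in Control 1 to 4. Without entries equal to a neighbour, 4 receptors had sense reads in every library, OR1I1, OR2J2, OR4Q3 and OR5B3.

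**Figure D4:**
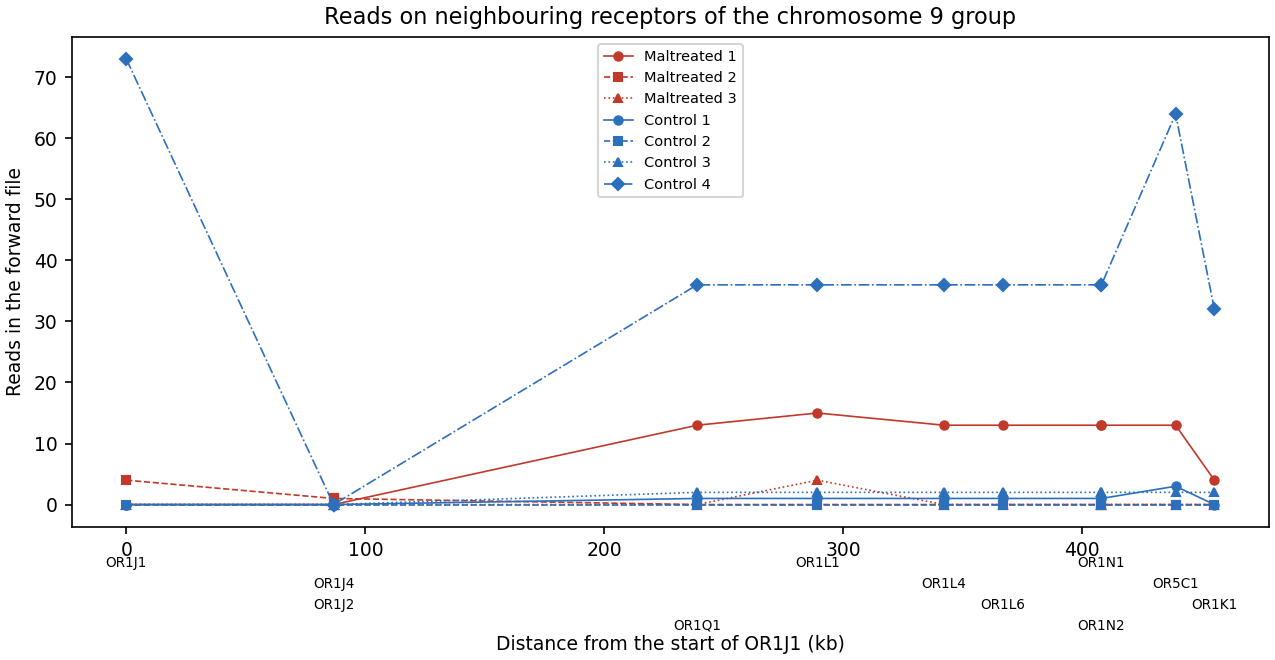
Reads of the forward file on 11 neighbouring receptors of chromosome 9 against the distance from the start of OR1J1 in kb, with 1 line per library; OR1J4 with OR1J2 and OR1N2 with OR1N1 share a locus and a point. Maltreated 1 stays at 13 to 15 reads and Control 4 at 36 reads from OR1Q1 to OR1N1.

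Control 4 stood apart in its receptor reads. Of the 26 pairs with 10 or more sense reads on at most 202 bases, Maltreated 1 had none among its 6768 receptor sense reads, and Control 4 had 14, which held 663 of its 1848 receptor sense reads (35.9%). Among those of Control 4 were OR3A1 with 89 reads on 98 bases, OR4A15 with 77 reads on 98 bases and OR1J1 with 73 reads on 154 bases. OR51E1 and OR51E2, class I receptors known in human prostate, also belonged to them. OR51E1 had 10, 5 and 0 sense reads in Maltreated 1 to 3, against 0, 0, 0 and 77 in Control 1 to 4, the last on 142 of 3121 bases. OR51E2 had 0, 0 and 6 in Maltreated 1 to 3, against 0, 0, 0 and 50 in Control 1 to 4, the last on 99 of 2775 bases. The sum of 8 prostate and seminal vesicle markers was highest in Control 2, at 306.8 CPM, and was 4.70 CPM in Control 4. OR2T12 had 40, 0 and 0 sense reads in Maltreated 1 to 3, against 0, 8, 0 and 98 in Control 1 to 4, its exon being entered in duplicate. OR2A42 had 43, 0 and 5 in Maltreated 1 to 3, against 0, 2, 0 and 97 in Control 1 to 4, and OR2A1 is listed at the same place on the opposite strand. Without the narrow entries, the summed level was 132 ± 82.9 CPM in Maltreated libraries (SD, n = 3) and 123 ± 76.7 CPM in Control libraries (SD, n = 4). Summed leukocyte markers were highest in Maltreated 3, with 59.8 CPM of receptor reads, and next in Control 4, with 348 CPM. The part of leukocytes in these levels was not tested.

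Of the receptors seen in a single library, most were in Maltreated 1, the deepest library, or Control 4. Maltreated 1 was the only library with sense reads for 49 receptors and Control 4 for 18, while the others were the only library for 4 to 9. Of the 49 in Maltreated 1, 32 had 1 or 2 reads, and of the 18 in Control 4, 10 did. Entries with 10 or more reads on at most 202 bases were 0 of the 49 in Maltreated 1 and 1 of the 18 in Control 4.

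Antisense reads were a larger share of the reads of receptors than of the reads of all genes. They made up 16.4% (95% Wilson interval 15.6 to 17.2), 23.4% (20.9 to 26.0) and 40.6% (37.7 to 43.6) of the receptor reads in Maltreated 1 to 3, against 32.7% (30.7 to 34.8), 45.4% (41.2 to 49.6), 43.5% (40.4 to 46.6) and 45.0% (43.3 to 46.7) in Control 1 to 4. Over all genes the share was 6.15, 9.69 and 8.45% in Maltreated 1 to 3, against 6.85, 10.4, 8.86 and 12.1% in Control 1 to 4. The share of receptor reads was thus above that of all genes in each of the 7 libraries. More antisense than sense reads were found for 128 receptors (45.4%), against 17.6% of all genes and 31.4% of the other single-exon genes. The same held for 13 of 27 taste receptors (48.1%), so this was not particular to the olfactory receptors.

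OR2J2, with few antisense reads, lowered the antisense share where it was abundant. Without it the share was 31.3, 35.2 and 41.1% in Maltreated 1 to 3, against 50.6, 45.8, 43.5 and 47.9% in Control 1 to 4. The groups then did not overlap, and leaving out libraries could not have made them overlap. Leaving OR2J2 out of this share was chosen after the values were seen. With OR2J2 the groups overlapped when all libraries were kept, at a mean of 26.8 ± 12.5% in Maltreated libraries (SD, n = 3) and 41.6 ± 5.997% in Control libraries (SD, n = 4). As a level on the same denominator, antisense reads came to 43.1, 39.9 and 40.9 CPM in Maltreated 1 to 3, against 68.4, 44.3, 71.3 and 285 CPM in Control 1 to 4. The groups did not overlap, by a margin of 43.1 CPM in Maltreated 1 against 44.3 CPM in Control 2. The mean was 41.3 ± 1.65 CPM in Maltreated libraries (SD, n = 3), against 117 ± 112 CPM in Control libraries (SD, n = 4) and 61.4 ± 14.8 CPM in Control libraries without Control 4 (SD, n = 3). Without Maltreated 3 it was 41.5 ± 2.27 CPM in the Maltreated libraries (SD, n = 2). In Control 4, 783 of its 1513 antisense receptor reads lay on 21 receptors with 10 or more reads on at most 202 bases each. These sums over the receptors were not tested.

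Antisense reads in every library were found for 4 receptors, OR10A5, OR1M1, OR2L13 and OR4Q3 (1.42% of the receptors, against 10.3% of all genes). OR1M1, at chr19:8968804-8969744 on the plus strand, had the most, 317, 4 and 45 in Maltreated 1 to 3, against 98, 49, 19 and 10 in Control 1 to 4, with all 941 bases listed as covered in each library. Its sense reads numbered 9, 1 and 11 in Maltreated 1 to 3, against 0, 4, 1 and 0 in Control 1 to 4. Its nearest neighbours were ZNF317, 18799 bases away, and MUC16, 100734 bases away. OR10A5 had 10, 13 and 12 antisense reads in Maltreated 1 to 3, against 21, 11, 15 and 23 in Control 1 to 4. Its locus contains that of OR10A2, which had the same counts in 6 libraries and 0 reads in Control 4, where the 23 reads of OR10A5 lay on 11 bases.

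Among the 10 receptors with most antisense reads, 7 had them in some libraries and were absent from others. OR1C1 had 116, 17 and 54 in Maltreated 1 to 3, against 36, 4, 53 and 0 in Control 1 to 4. OR7D2 had 95, 0 and 16 in Maltreated 1 to 3, against 11, 32, 0 and 1 in Control 1 to 4. OR2D3 had 70, 0 and 22 in Maltreated 1 to 3, against 42, 2, 0 and 0 in Control 1 to 4. The highest library of these 3 by count was the deepest, Maltreated 1. OR10H3, with a duplicate exon entry, had 16, 0 and 22 in Maltreated 1 to 3, against 112, 2, 0 and 0 in Control 1 to 4. OR6Y1 had 1, 0 and 0 in Maltreated 1 to 3, against 0, 0, 0 and 111 in Control 1 to 4, the last on 259 of its 977 bases. OR52K1 had 13, 8 and 10 in Maltreated 1 to 3, against 0, 1, 0 and 74 in Control 1 to 4. OR2A1, also among the 10, holds the sense reads of OR2A42 described above.

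In the comparison of Maltreated with Control sense reads, no receptor passed the test. The filter kept 10719 genes and 11 of the 282 receptors. A receptor with reads mainly in 1 group passes the filter through that group, so the 11 do not stand for all receptors. Of all genes tested, 0 were called at an adjusted p of 0.05 (edgeR's quasi-likelihood test with Benjamini-Hochberg adjustment, 0% called), against 3 with DESeq2's Wald test, none of them a receptor. At an unadjusted p below 0.05 there were 191 genes (1.78%) and 0 receptors, and the groups did not overlap for 385 genes (3.59%) and 0 receptors. Of the 11 receptors, 6 had higher and 5 lower fitted levels in Maltreated libraries, against 48.7% of all tested genes with higher levels. The median log2 fold change was 0.32, against -0.02 over all tested genes. OR2L2, OR2L3, OR2L5 and OR2L8, all lower, lie in the same cluster, and OR2J2 and OR2J3, both higher, are neighbours. The 11 are therefore not separate observations. The receptors ran from -1.48 for OR2L2 to 2.42 for OR4K2, and OR1I1 had the smallest unadjusted p, 0.131, and OR4K2 the next, 0.138. OR2J3 was at 1.50 ± 2.08, OR4A16 at 0.89 ± 1.72, OR6C74 at 0.32 ± 1.31 and OR2L8 at -0.91 ± 1.65 (log2 fold change ± SE). The standard errors, from 0.82 to 2.08, leave room for changes in either direction for each of the 11 receptors.

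For antisense reads, 4382 genes and 8 receptors were tested, and 0 genes were called by the same test (0% called), with 110 genes (2.51%) and 0 receptors at an unadjusted p below 0.05. The groups did not overlap for 191 genes (4.36%) and 0 of the 8 receptors. DESeq2's Wald test called 16 genes, none a receptor. Log2 fold changes were -1.40 ± 1.47 for OR2L13, -1.02 ± 1.38 for OR10A5, -0.52 ± 1.65 for OR10A2, -0.38 ± 1.48 for OR4Q3, -0.17 ± 1.36 for OR1M1 and -0.11 ± 1.91 for OR7D2 (SE). They were 0.27 ± 1.62 for OR1C1 and 0.29 ± 2.01 for OR2D3. The median of the 8 was -0.27, against -0.13 over all tested genes. Each adjusted p of edgeR's quasi-likelihood test was 0.998.

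**Figure D5:**
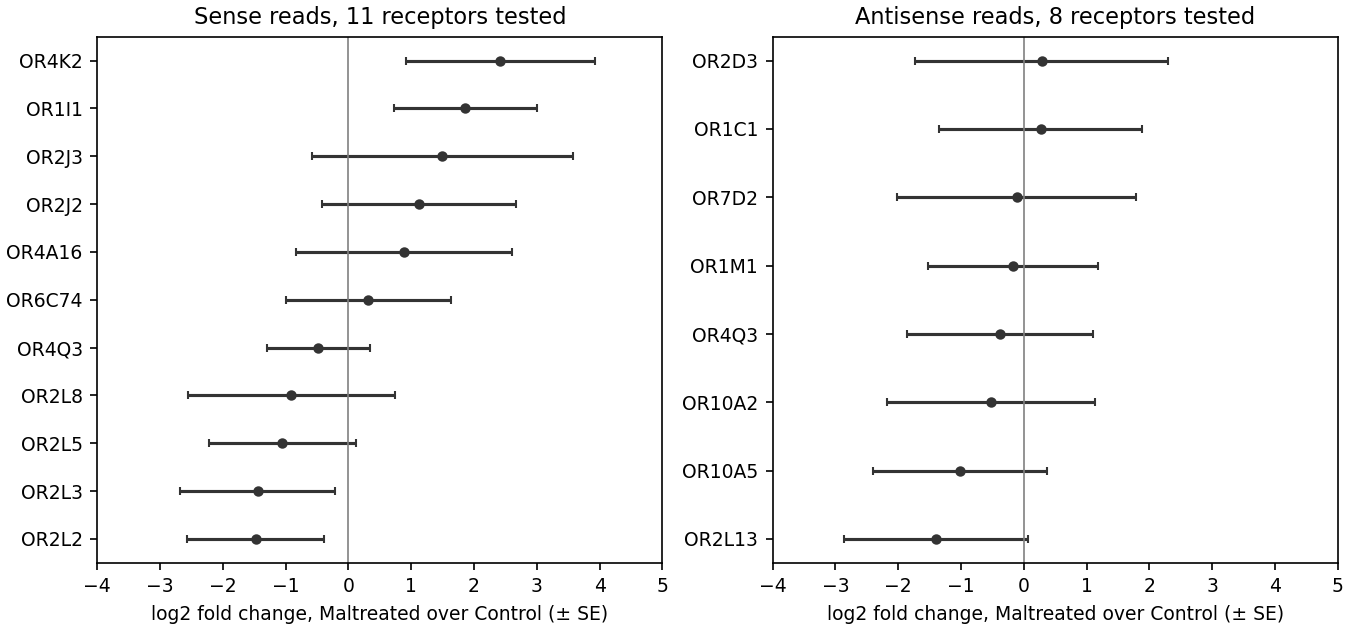
Log2 fold change, Maltreated over Control, for the 11 receptors tested on sense reads and the 8 tested on antisense reads. Bars are standard errors worked out from the fold change and the F value of edgeR's quasi-likelihood test. The fold changes run from -1.48 to 2.42 for sense and from -1.40 to 0.29 for antisense reads, and none passed the test.

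The receptors described in human sperm or testis were mostly at a few reads here. Of the 12 listed, 9 were measured, and OR1I1 had reads in every library. OR1D2, the bourgeonal receptor of human sperm, had 2, 8 and 0 sense reads in Maltreated 1 to 3 and 0 in each Control library, and OR1D5 is listed at an overlapping locus on the same strand. OR3A2 had 3, 8 and 0, OR2W3 4, 1 and 0 and OR4S1 6, 0 and 0 sense reads in Maltreated 1 to 3, with 0 in each Control library. The 8 reads of OR1D2 and OR3A2 in Maltreated 2 belonged to a run of 6 receptors with 8 reads each over 168 kb. OR4D1 had 1 read in Maltreated 1 and 2 in Control 1, and OR10J1 had 2 in Control 3. OR2H2 had 1 read in Maltreated 3 and 3 in Control 4, and OR6B2 had 4 in Maltreated 3 and 1 in Control 3.

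Genes that work with odorant receptors in the nose were a mixed group. Of 15 genes listed for olfactory transduction, 14 were measured and 6 had sense reads in every library. Those with the highest CPM, which is not corrected for gene length, were GNB1, a G protein beta subunit used by many receptors, ADRBK2, a receptor kinase, and ANO2, a calcium-activated chloride channel. GNB1 averaged 3171 ± 327 CPM in Maltreated libraries (SD, n = 3) and 3287 ± 265 CPM in Control libraries (SD, n = 4). ADRBK2 averaged 479 ± 69.0 CPM in Maltreated libraries and 486 ± 181 CPM in Control libraries, with the same n. ANO2 averaged 105 ± 9.53 CPM in Maltreated libraries and 106 ± 19.0 CPM in Control libraries. Of 14 measured genes on the list for olfactory neurons, 4 had sense reads in every library. The list shares ADCY3, ANO2, CNGA2, CNGA4, CNGB1 and GNG13 with that for transduction, and REEP1, RIC8B, RTP1 and RTP2 with that for receptor transport. It summed to 218 to 272 CPM in Maltreated libraries and 198 to 265 CPM in Control libraries. Most of the sum came from ANO2 and RIC8B, at means of 106 and 98.5 CPM over all libraries. EBF1, a transcription factor also used outside the nose, averaged 7.79 ± 4.96 CPM in Maltreated libraries (SD, n = 3) and 15.03 ± 16.7 CPM in Control libraries (SD, n = 4). CNGA2, a subunit of the olfactory channel, had 6, 2 and 0 sense reads in Maltreated 1 to 3, against 1, 0, 6 and 0 in Control 1 to 4. OMP, the olfactory marker protein, had 8, 1 and 1 reads in Maltreated 1 to 3, against 0, 15, 0 and 2 in Control 1 to 4.

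Of 8 genes for receptor transport, 3 had sense reads in every library, and RTP3 had 0. REEP6 averaged 296 ± 227 CPM in Maltreated libraries (SD, n = 3) and 255 ± 142 CPM in Control libraries (SD, n = 4). RIC8B, which helps fold the olfactory G protein, averaged 110 ± 40.4 CPM in Maltreated libraries and 89.9 ± 16.3 CPM in Control libraries. RTP1, which brings odorant receptors to the cell surface, averaged 4.82 ± 2.36 CPM in Maltreated libraries and 7.02 ± 9.09 CPM in Control libraries.

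Other chemoreceptor families were sparse too, with exceptions among the bitter taste receptors. Of 27 taste receptors, 3 had sense reads in every library (11.1%, against 2.48% of the olfactory receptors) and 9 had none. Those in every library were TAS2R19, TAS2R31 and TAS2R43. TAS2R19 averaged 35.2 ± 9.81 CPM in Maltreated libraries (SD, n = 3) and 41.6 ± 13.1 CPM in Control libraries (SD, n = 4). TAS2R43 averaged 16.4 ± 1.52 CPM in Maltreated libraries and 24.9 ± 15.7 CPM in Control libraries, and TAS2R31 averaged 16.6 ± 2.56 CPM in Maltreated libraries and 23.3 ± 13.6 CPM in Control libraries, with the same n. Of 5 trace amine receptors, none had sense reads in every library and TAAR8 had 0 reads. The vomeronasal receptor VN1R1 had 57 sense reads in Control 4 and 0 elsewhere.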

How the data were processed

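Total RNA of 7 sperm libraries was analysed from the deposited processed files. The submitters' processing notes name the tools STAR, bedtools and featureCounts. Their versions, their order and the genome build are not given in the sources used here. Per the file headers, the deposited tables hold raw counts of reads per exon and gene, sense and antisense, and the covered fraction of each. The gene counts equalled the sums over exon entries in all 7 libraries, so a read on several exons or overlapping genes is counted on each of them, and the exons of 3 receptors are entered in duplicate. RTN3 and ZC3HAV1, listed on both strands, were left out. Of the 282 receptor symbols, 161 are current in the RefSeq table supplied with the data, and coordinates are those of the deposited files.

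From these values CPM, shares with 95% Wilson intervals and the covered bases were computed. Counts were tested with edgeR 4.0.16 (TMM, filterByExpr with a minimum count of 10 and a minimum total of 15, quasi-likelihood F test on the group, R 4.3.3), with Benjamini-Hochberg adjustment over every tested gene and a threshold of 0.05, with 5 residual degrees of freedom. Depth ran from 5316383 to 30715268 sense reads per library, and intervals and floors cover counting error only. P-values set the difference between the groups against the spread between these libraries, as the fit estimates it with information from all tested genes. The fit gives no standard error, so those shown are the absolute log2 fold change divided by the square root of its F value. Sums over receptors were not tested.

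The members and lists were chosen with earlier results of these data known. The receptors named are those with sense or antisense reads in every library and those with none, the 10 highest by CPM and by length-corrected level, the 10 with most antisense reads, the tested ones with the smallest p, and those described in human sperm, testis or prostate. The chromosome 9 group, the class I sums, and the receptors with reads on narrow stretches were chosen after their values were seen. The antisense share without OR2J2 and the alternative without entries equal to a neighbour were also chosen then. So were the read span of 101 bases, the groups of entries built on it and the alternatives that leave such entries out. Other alternatives were DESeq2 1.42.0 size factors and Wald test, total counts, no filter, a replicate block and leaving out each library. The edgeR step was tested on simulated data with known changes. At a spread like that of these sense reads it missed many of them, so a lack of calls does not show a lack of change.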

Additional observations from a re-analysis of the deposited data

Results flagged for a closer look

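In the Control group of 4, the gap of the highest library to the nearest other, divided by the range, exceeded Dixon's 95% critical value for 4 samples for several receptors and for the antisense level of all receptors. Chance alone gives about 1 such case in 20 groups, and a receptor with 0 reads in 3 libraries always gives one.

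Control 4 was the high library for the antisense reads of all receptors in CPM, with a gap of 0.888 of the range. Control 1 was the low library for the antisense share of receptor reads, at 0.848. For single receptors Control 4 was the high library in the sense reads of OR2A42 (0.980), OR2T12 (0.921) and OR5B3 (0.869), and in the antisense reads of OR2A1 (0.980), OR52K1 (0.987) and OR6Y1 (1). OR2A42 and OR2A1 share a locus, so theirs is a single case.

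Control 1 was the high library in the sense reads of OR2J3 (1), OR4A16 (0.909) and OR4K2 (0.838), and in the antisense reads of OR10H3 (0.968) and OR2D3 (0.915). Control 4 and Control 1 were the only Control libraries that stood apart in this way, by this measure and among the receptors examined. Many of those receptors were picked for a high mean level or many antisense reads, which a single high library can bring about. The choice thus favours such cases, and the chance rate given above does not hold for them.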

How the results depend on the processing

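No receptor was called under any alternative run, with sense or antisense reads. Genes called numbered 3 for sense reads and 16 for antisense reads with DESeq2's Wald test, and 24 for antisense reads without a filter, against 0 on each strand with the filtered fit of edgeR's quasi-likelihood test. The 24 are also from edgeR, without its filter. Leaving out each library gave 0 called genes for both strands. Replicate numbers did not pair the libraries (correlations of deviations 0.0749, 0.00993 and -0.0194, and 1 of 3 numbers best with its own), and the replicate block left 0 genes called.

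Of 205 alternative values of single receptors, 184 kept their direction and 21 did not, with a lowest adjusted p of 0.997 by edgeR or DESeq2. The run without a filter is not among these values. In that run, edgeR's quasi-likelihood test gave an unadjusted p below 0.05 for 10 of 205 receptors on sense reads, against 784 of 17813 genes. For antisense reads it did so for 21 of 220 receptors, against 1429 of 17280 genes. With the replicate block, the log2 fold change was 2.93 for OR2J2 sense (1.13 without it), -0.083 for OR6C74 sense, -0.076 for OR2D3 antisense and 0.87 for OR7D2 antisense. With total counts it was 0.14 for OR1M1 and 0.40 for OR7D2 antisense. Leaving out each library, it ran from -0.10 to 1.07 for OR6C74 sense, and for antisense reads from -0.15 to 1.34 for OR1C1, -1.19 to 0.39 for OR1M1, -0.16 to 0.88 for OR2D3, -1.26 to 0.38 for OR4Q3 and -1.09 to 1.83 for OR7D2.

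Receptors with sense reads in every library numbered 2 at 10 reads, 16 with antisense reads added, 3 without entries covering more bases than their reads hold and 4 without entries equal to a neighbour. At 3 reads there were 5, and without narrow entries there were also 5, not all of them the same. At the lowest depth 6.74 were expected, and leaving out each library gave 7 to 9. Receptors with no read numbered 77 for sense reads alone and 21 to 56 without each library. The log2 ratio of the summed level was 0.10 without narrow entries and ran from -0.73 to 0.52 without each library. Without both OR2J2 and the narrow entries it was -0.44. The difference in antisense share was -14.9 percentage points and ran from -21.8 to -9.66 without each library. The cause of these shifts was not tested. Depth limits what can be said of single receptors, 209 of 282 having under 10 sense reads in all.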
